A study of Mus musculus with 12 samples.

Results

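Secreted growth factors and cytokines that act on myelin-forming cells were followed in adult mouse spinal cord before and after loss of myelin. The 10 factors, Igf1, Pdgfa, Fgf2, Tgfb1, Gdf15, Inhba, Bmp4, Lif, Osm and Bdnf, were chosen by name and found by gene symbol among the 54838 genes counted. All 10 had enough counts to be among the 31109 genes tested. RNA came from mice at postnatal day 60 with the genotype Olig1+/+;Tet1fl/fl (control) or Olig1cre/+;Tet1fl/fl (Tet1 mutant), so that both carried the floxed Tet1 gene and the mutants alone carried the cre recombinase, which is driven from the Olig1 locus of oligodendrocyte-lineage cells. Recombination removes exon 4 of Tet1 in that lineage alone, and other cells of the preparation keep the gene. Tissue was either unlesioned, from the other side of the cord, or taken 4 days after injection of lysolecithin (4dpl), a detergent-like lipid that strips myelin, and each of the 4 groups had 3 libraries. Cells were enriched for oligodendroglia on a Percoll density gradient and were not sorted, and the labels do not say which libraries shared a mouse, so p-values measure the spread between these libraries.

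Repair of myelin requires oligodendrocyte progenitors to divide, migrate and mature, and secreted factors act at each of these steps. Platelet-derived growth factor A and basic fibroblast growth factor (Fgf2) are mitogens of progenitors, whereas insulin-like growth factor 1 supports survival and myelin synthesis. Members of the TGF-beta superfamily (Tgfb1, Gdf15, Inhba, Bmp4) signal through paired serine/threonine kinase receptors to SMAD proteins, except that Gdf15 binds Gfral. Lif and Osm belong to the interleukin-6 family and share the receptor subunit gp130, encoded by Il6st, and Bdnf signals through the kinase TrkB, encoded by Ntrk2.

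Total counts lay between 34805086 and 67251544 per library. Tet1, counted over the whole gene, was between 9.94 and 21.5 CPM (counts scaled to library size by the TMM method) across the 12 libraries and did not separate the genotypes, which are taken from the labels. Markers of oligodendrocytes, 10 genes such as Mbp, made up 1.48% to 7.01% of counts, and 10 neutrophil markers such as S100a8 and Ngp made up 2.25% to 12.1%, more than the oligodendrocyte markers in 9 of the 12 libraries. None of the genes in the 13 marker lists had a count of 0 in any library. Genes of low level fell as a body after lesion: averaged over both genotypes, the median log2 difference was -1.59 among the 15344 genes with a mean below 1 CPM and 0.34 among the other 15765. The TMM scaling factor was between 0.806 and 0.932 in lesioned libraries. It was between 1.14 and 1.30 in unlesioned libraries other than control unlesioned replicate 1, at 0.881. The part of this difference between libraries in the fall of low-level genes was not tested. In bulk RNA, fewer cells of a type and less RNA per cell cannot be told apart.

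The factors spanned a wide range of levels. Per kilobase of exon (RPKM, CPM divided by exonic length in kilobases), Osm was the most abundant of the 10 in all 4 groups, with group means between 61.3 and 95.7, and in no group did its libraries overlap those of the next factor. Tgfb1 and Pdgfa took the next places. In control unlesioned tissue they stood at 15.2 ± 7.81 and 15.5 ± 5.37 RPKM (SD, n = 3) and overlapped, whereas in control 4dpl tissue Tgfb1 at 27.1 ± 1.98 RPKM lay wholly above Pdgfa at 13.99 ± 1.34 RPKM (SD, n = 3). Igf1 moved from the 6th place to the 5th in the control and from the 6th to the 4th in the mutant. Fgf2, Lif and Bdnf held the last 3 places in every group, with group means between 0.125 and 0.634 RPKM.

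**Figure D1:**
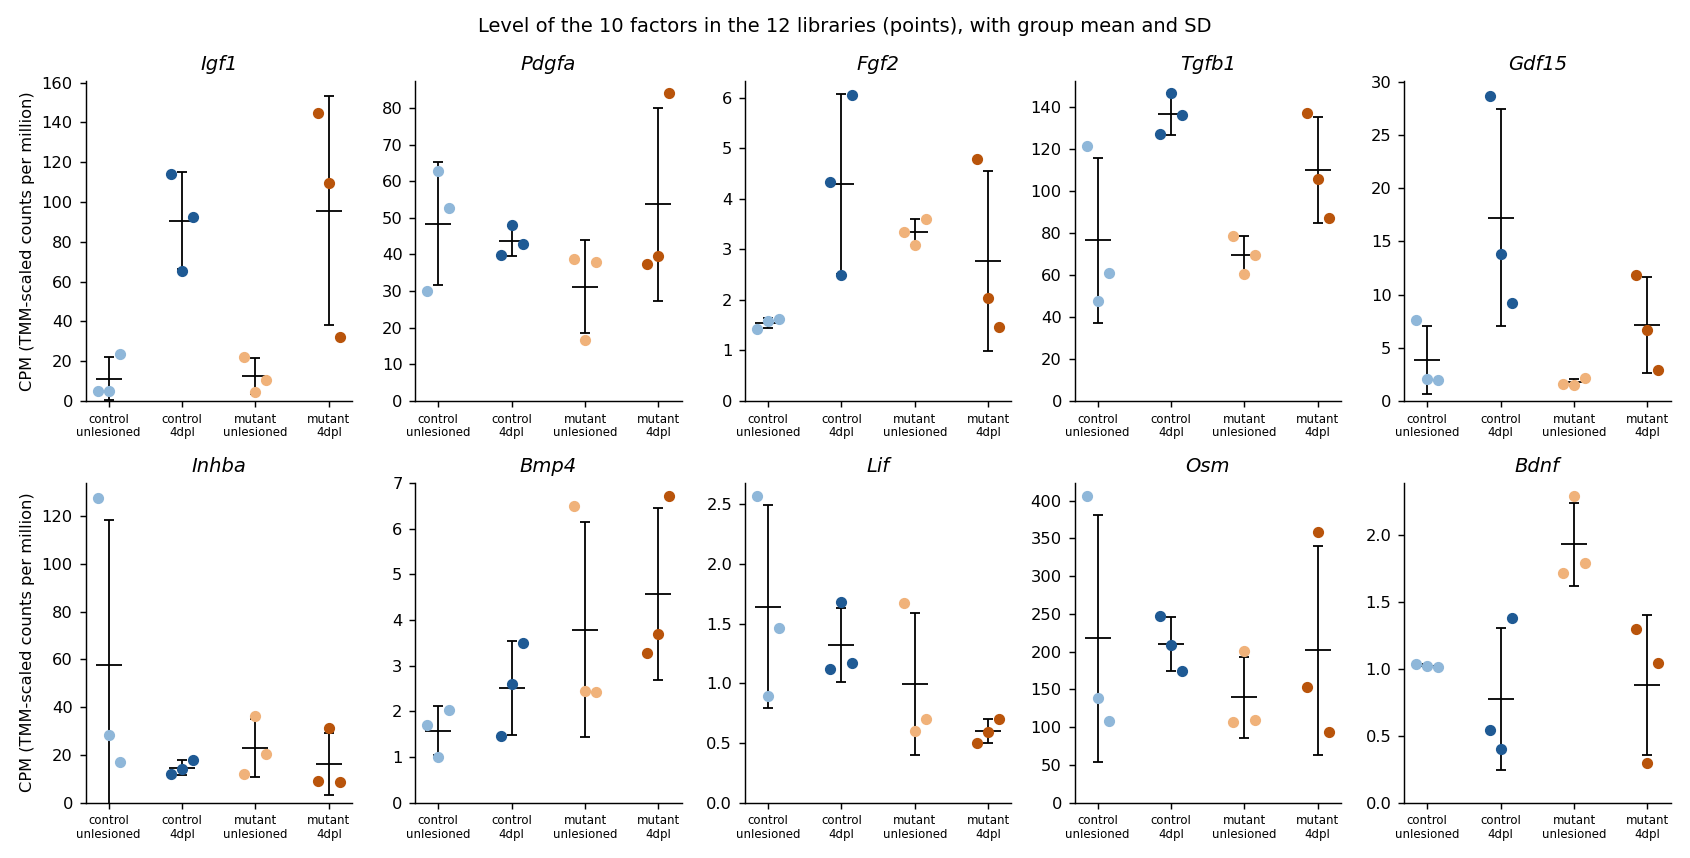
Level of each factor, in CPM on a linear axis from 0, in the 12 libraries (points), with the mean and SD of each group of 3. Igf1 separates all 6 lesioned libraries (32.3 CPM or more) from all 6 unlesioned ones (23.5 CPM or less), while Osm and Inhba have their highest value in control unlesioned replicate 1.

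Of the 10 factors, 3 rose after lesion in the control, Igf1, Gdf15 and Fgf2, and none fell, where a gene was called at p below 0.01 and a Benjamini-Hochberg adjusted p below 0.05 (edgeR quasi-likelihood test). Among all genes tested in this comparison, 5.12% were called up and 5.01% down. In the mutant none was called, where 0.0225% of all genes were called up and 0.113% down. Averaged over both genotypes, Igf1, Gdf15 and Tgfb1 rose and none fell, beside 14.2% of all genes called up and 18.6% down. Among genes with a mean of at least 1 CPM, as all 10 factors had, 27.8% were called up, so that 3 of 10 is close to the background share. The median log2 difference of the 10 factors over both genotypes was 0.39. The count in the control was 0 without control unlesioned replicate 2, control 4dpl replicate 1 or control 4dpl replicate 2, and 1 (Igf1) without control unlesioned replicate 3, mutant unlesioned replicate 3 or mutant 4dpl replicate 2. The count in the mutant was 3 without control unlesioned replicate 1 and 1 without mutant unlesioned replicate 1. These counts moved with the calls over all genes. In the control 3150 genes were called with every library, and 1, 4 and 2 without those first 3 libraries and 114, 880 and 2021 without the other 3. In the mutant 42 genes were called with every library, and 4498 and 3430 without control unlesioned replicate 1 or mutant unlesioned replicate 1.

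**Figure D2:**
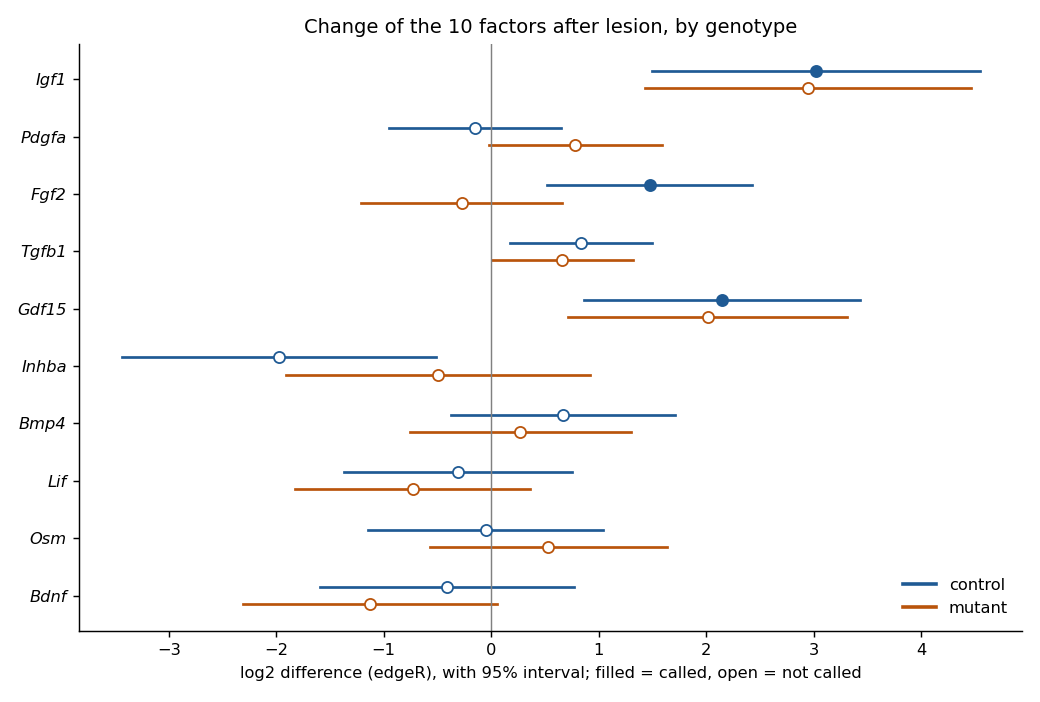
Log2 difference between 4dpl and unlesioned libraries for each factor in the control (blue) and the mutant (orange), with 95% intervals from edgeR, where filled points passed the test. Igf1 and Gdf15 lie near 3 and 2 in both genotypes, and Fgf2 lies at 1.48 in the control and -0.28 in the mutant.

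Igf1 showed the steepest rise. In control unlesioned libraries 1, 2 and 3 it was at 5.09, 4.82 and 23.5 CPM, and in control 4dpl libraries at 114, 65.5 and 92.2 CPM. Mutant libraries were at 22.1, 4.41 and 10.6 CPM unlesioned and at 145, 110 and 32.3 CPM at 4dpl. Every lesioned library was above every unlesioned library, with mutant 4dpl replicate 3 the lowest of the lesioned and control unlesioned replicate 3 the highest of the unlesioned. The log2 difference was 3.02 ± 0.71 (SE) in the control, an 8.12-fold rise (adjusted p = 0.0316, edgeR), and 2.95 ± 0.71 (SE) in the mutant, which just missed the threshold (adjusted p = 0.0544, edgeR). Over both genotypes it was 2.98 ± 0.50 (SE, adjusted p = 0.0028, edgeR), and 11 of the 31109 genes tested had a larger rise. The call in the control was lost without control unlesioned replicate 2 (adjusted p = 0.109, edgeR), control 4dpl replicate 1 (0.0889) or control 4dpl replicate 2 (0.0805), whereas the call in the mutant was gained without control unlesioned replicate 1 (0.0314) or mutant unlesioned replicate 1 (0.0322). It was also gained with no filter on low counts (adjusted p = 0.01, edgeR), with edgeR's legacy option set to false (0.0269), with DESeq2 (0.000986) and with voom (0.0149). The call over both genotypes held with each library left out.

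The change of Igf1 in the mutant minus that in the control was -0.08 on the log2 scale, with a 95% interval from -2.07 to 1.92, an interval wide enough to hold a difference of several fold. The genes with the most similar pattern to Igf1 over the 12 libraries, by Pearson's r of log2 CPM among 13616 genes, were Npl (0.971), Ccdc90b (0.969) and Lpl (0.967). Npl encodes a sialic acid lyase and Lpl encodes lipoprotein lipase, which is also among the 10 markers of activated phagocytes. The summed level of those 10 markers, Gpnmb and Spp1 among them, was between 4171 and 11738 CPM in control unlesioned libraries and between 41095 and 42946 CPM in control 4dpl libraries. In the mutant it was between 2553 and 6927 CPM unlesioned and between 19721 and 29958 CPM at 4dpl. Igf1 ranked the libraries as this sum did in 3 of the 4 groups, and 8 of the 10 markers rose over both genotypes. The part of these cells in the rise of Igf1 was not tested.

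Igf1 lies on chromosome 10 of GRCm38, from 87858265 to 87937042 on the plus strand. Windows of 250 bases before a RefSeq start (GRCm38.p6) were found for 9 of the 10 factors, 17 windows in all, and none for Osm. They were searched on both strands for 4 motifs: AP-1 (TGANTCA), C/EBP-ATF (TGATGNAA), STAT (TTCNNNGAA) and E-box (CACGTG). Of the factors not called in any comparison, Lif and Bdnf held an AP-1 match, Bdnf a STAT match and Bmp4 an E-box. Sequences are shown for the factors that rose over both genotypes, with motif letters in capitals. The window of Igf1, which lies within an exon of another transcript of the gene, held an AP-1 match from 37 to 31 bases before the start, and the 30 bases around it (chr10:87861063-87861092, plus strand) read as follows.
Igf1: gagctggaactTGAATCActattctggata
An AP-1 match was found in 6.75% of all 32851 RefSeq windows of this length, so its presence is a description and not evidence of binding.

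Gdf15 and Tgfb1, both of the TGF-beta superfamily, were the other factors that rose over both genotypes. Gdf15, a stress-induced cytokine, was at 7.57, 2.10 and 1.95 CPM in control unlesioned libraries and at 28.7, 13.8 and 9.24 CPM in control 4dpl libraries. It was at 1.60, 1.54 and 2.15 CPM in mutant unlesioned libraries and at 11.9, 6.66 and 2.88 CPM in mutant 4dpl libraries. Lesioned and unlesioned libraries did not overlap within either genotype, although control unlesioned replicate 1 lay above mutant 4dpl replicates 2 and 3.

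The log2 difference of Gdf15 was 2.15 ± 0.60 (SE) in the control (adjusted p = 0.0428, edgeR), 2.01 ± 0.60 (SE) in the mutant (adjusted p = 0.0655, edgeR) and 2.08 ± 0.43 (SE) over both genotypes (adjusted p = 0.0048, edgeR). Its change differed between genotypes by -0.14, with a 95% interval from -1.91 to 1.64. The call in the control was lost without control unlesioned replicates 2 (adjusted p = 0.135, edgeR) or 3 (0.128), control 4dpl replicates 1 (0.144) or 2 (0.0926), mutant unlesioned replicate 3 (0.059) or mutant 4dpl replicate 2 (0.0509). It was also lost with at least 10 counts required in every library (0.0601) and with the control groups fitted alone (0.0622). That in the mutant was gained without control unlesioned replicate 1 (adjusted p = 0.033, edgeR), with no filter (0.038), with edgeR's legacy option set to false (0.0432), with DESeq2 (0.016) and with voom (0.0342). The call over both genotypes held with each library left out. The genes most similar in pattern were Mmp12 (r = 0.965), Cd36 (0.960) and Ftl1 (0.960), which encode a macrophage elastase, a lipid scavenger receptor and ferritin light chain.

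Tgfb1 was at 121, 47.5 and 60.8 CPM in control unlesioned libraries and at 127, 147 and 136 CPM in control 4dpl libraries. Mutant libraries were at 78.6, 60.5 and 69.6 CPM unlesioned and at 137, 106 and 87.3 CPM at 4dpl. The groups did not overlap within either genotype, but control unlesioned replicate 1 lay above mutant 4dpl replicates 2 and 3. The log2 difference was 0.84 ± 0.31 (SE, adjusted p = 0.0826) in the control, 0.66 ± 0.31 (SE, adjusted p = 0.1459) in the mutant and 0.75 ± 0.22 (SE, adjusted p = 0.0169) over both genotypes (edgeR). This last value stood beside a median of 0.50 for genes of the same level, between 6 and 7 on the log2 CPM scale, and within the upper quartile that begins at 0.72. The call over both genotypes was lost without control unlesioned replicate 3 (p above 0.01, adjusted p = 0.0425, edgeR) or mutant 4dpl replicate 1 (p above 0.01, adjusted p = 0.0363, edgeR), and with the filter of at least 10 counts in every library (adjusted p = 0.079). Vav1 (r = 0.982), Irf5 (0.981) and Tlr2 (0.981), genes of white blood cell signalling, were the most similar in pattern.

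Gdf15 lies on chromosome 8 from 70629393 to 70632456 on the minus strand, and Tgfb1 on chromosome 7 from 25687002 to 25705077 on the plus strand. The window just before the first exon of each (chr8:70632457-70632706, minus strand, and chr7:25686752-25687001, plus strand) held no match to any of the 4 motifs. A second window of Gdf15, which overlaps its first exon, held an E-box from 83 to 78 bases before a downstream start, shown with 30 bases at chr8:70632161-70632190. An E-box was found in 6.02% of all windows.
Gdf15, upstream window: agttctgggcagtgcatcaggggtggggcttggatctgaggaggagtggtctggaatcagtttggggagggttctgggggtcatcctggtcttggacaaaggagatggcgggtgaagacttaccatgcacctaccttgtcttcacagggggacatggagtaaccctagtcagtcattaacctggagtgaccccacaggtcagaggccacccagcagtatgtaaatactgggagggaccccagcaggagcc
Gdf15, E-box: cacagggcagggCACGTGtgagcatccagt
Tgfb1, upstream window: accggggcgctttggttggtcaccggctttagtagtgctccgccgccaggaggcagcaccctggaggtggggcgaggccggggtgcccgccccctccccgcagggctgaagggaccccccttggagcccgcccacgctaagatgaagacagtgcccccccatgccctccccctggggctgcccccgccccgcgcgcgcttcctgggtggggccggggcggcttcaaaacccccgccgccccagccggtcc

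**Figure D3:**
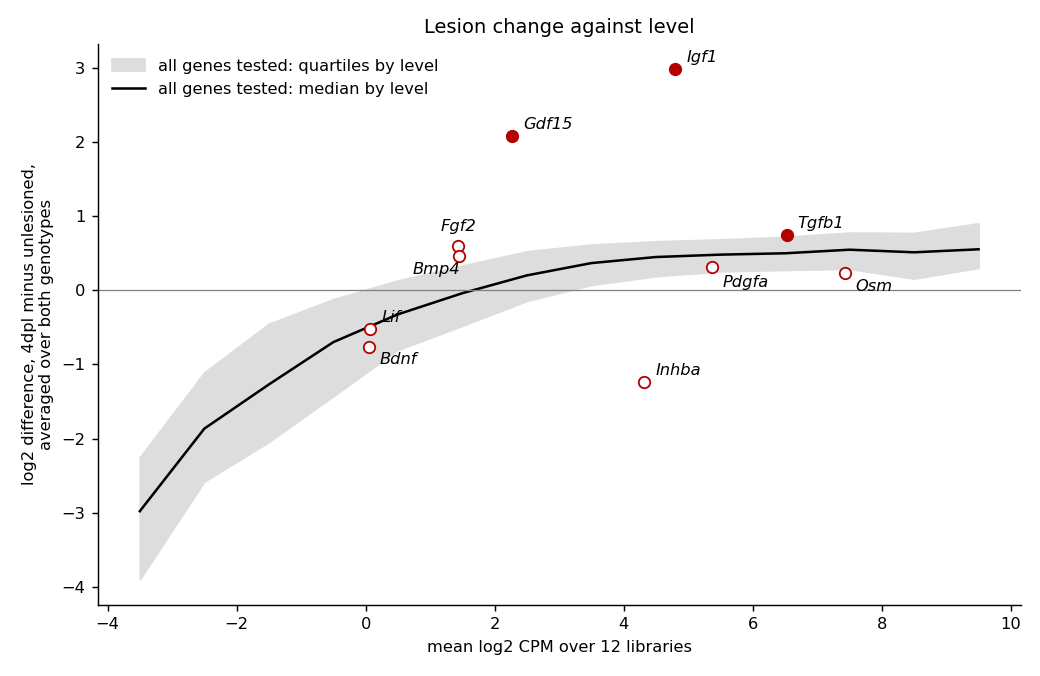
Log2 difference after lesion, averaged over both genotypes, against mean log2 CPM, for the 10 factors (red, filled where called) over the median (line) and quartiles (grey) of all genes tested in bins of level. Igf1 and Gdf15 lie far above the grey band, Tgfb1 at its upper edge, and Inhba below it, while Lif and Bdnf lie inside the fall of low-level genes.

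Among the progenitor mitogens, Fgf2 was called in the control. It was at 1.43, 1.57 and 1.62 CPM in control unlesioned libraries and at 4.34, 2.50 and 6.06 CPM in control 4dpl libraries, without overlap. In the mutant it was at 3.34, 3.09 and 3.60 CPM unlesioned and at 4.80, 2.04 and 1.46 CPM at 4dpl, where replicate 1 was above and replicates 2 and 3 below the unlesioned libraries. These levels rest on 74 to 263 counts per library.

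The log2 difference of Fgf2 after lesion was 1.48 ± 0.45 (SE) in the control (adjusted p = 0.0498, edgeR) and -0.28 ± 0.44 (SE) in the mutant (adjusted p = 0.6666, edgeR). The difference between these changes was -1.75, with a 95% interval from -3.08 to -0.42 (unadjusted p = 0.0135), and it did not pass the test across all genes (adjusted p = 0.9999, edgeR). The rise in the control sat at the threshold. It was lost under 15 of 21 alternatives and held with no filter, with DESeq2, with voom and with edgeR's legacy option set to false. The losses came with RLE size factors (adjusted p = 0.0556), at least 10 counts in every library (0.107), the control groups fitted alone (0.0653), either fit with a replicate block, and any 1 library left out (adjusted p from 0.0545 to 0.133) other than mutant 4dpl replicates 1 or 3 (edgeR).

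Unlesioned mutant libraries lay above all control ones for Fgf2, with a log2 difference of 1.12 ± 0.44 (SE, adjusted p = 0.867, edgeR). On chromosome 3, from 37348346 to 37410108, Fgf2 shares up to 585 bases of exon with Nudt6 on the opposite strand and 255 with Gm43439 on its own strand. Nudt6 was at 1.69, 2.32 and 1.66 CPM in control unlesioned libraries, above Fgf2 in each, and at 3.06, 3.73 and 3.25 CPM in control 4dpl libraries, without overlap. Its log2 difference was 0.82 in the control, in the direction of Fgf2, and was not called (adjusted p = 0.0977, edgeR). In the mutant it was between 1.44 and 2.38 CPM unlesioned, below Fgf2 in each library, and between 2.34 and 2.97 CPM at 4dpl. The part of Nudt6 in the levels of Fgf2 was not tested, and reads of the pair cannot be assigned without strand, of which no statement was found in the sources used here.

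Pdgfa was not called in any comparison. It was at 29.996, 62.7 and 52.7 CPM in control unlesioned libraries and at 39.9, 48.1 and 42.9 CPM in control 4dpl libraries, which lay within the unlesioned range. In the mutant it was at 38.9, 16.6 and 38.1 CPM unlesioned and at 37.4, 39.6 and 84.0 CPM at 4dpl. The highest value, in mutant 4dpl replicate 3, came with the highest sum of oligodendrocyte markers (70150 CPM). The lowest value, in mutant unlesioned replicate 2, came with the lowest sum (14760 CPM). Control unlesioned replicates 2 and 3, at 62.7 and 52.7 CPM, had low sums of 16805 and 18315 CPM. Pdgfa ranked the libraries as this sum did in 2 of the 4 groups. The part of oligodendrocyte content in these values was not tested. The log2 difference was -0.15 ± 0.37 (SE, adjusted p = 0.7882) in the control and 0.78 ± 0.38 (SE, adjusted p = 0.1573) in the mutant (edgeR). Its gene shares up to 354 bases of exon with 6330403L08Rik on the opposite strand.

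Inhba, the subunit of activin A, had its highest level in 1 unlesioned library. It was at 128, 28.2 and 16.9 CPM in control unlesioned libraries and at 11.96, 14.1 and 17.9 CPM in control 4dpl libraries. Levels in the mutant were 12.03, 36.2 and 20.5 CPM unlesioned and 8.84, 31.3 and 8.67 CPM at 4dpl. The log2 difference was -1.97 ± 0.68 (SE, adjusted p = 0.0703) in the control, -0.50 ± 0.66 (SE, adjusted p = 0.6028) in the mutant and -1.24 ± 0.47 (SE) over both genotypes (adjusted p = 0.0495, edgeR), where the unadjusted p was above 0.01. Control unlesioned replicate 1 stood apart from the other libraries on the second principal component. Without it, the value over both genotypes was -0.53 (adjusted p = 0.229, edgeR). Over 20 alternatives this value lay between -1.66 and -0.53, and 15 of them left Inhba uncalled. In the control, 19 of 21 alternatives left Inhba uncalled.

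Osm, a cytokine of neutrophils and macrophages, was spread widely within groups. It was at 406, 138 and 108 CPM in control unlesioned libraries and at 247, 208 and 175 CPM in control 4dpl libraries. Levels in the mutant were 107, 201 and 110 CPM unlesioned and 153, 358 and 94.1 CPM at 4dpl. The log2 difference was -0.05 ± 0.51 (SE, adjusted p = 0.9514) in the control and 0.53 ± 0.51 (SE, adjusted p = 0.4639) in the mutant (edgeR), with intervals from -1.15 to 1.04 and from -0.57 to 1.63.

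Within each of the 4 groups, Osm ranked the libraries in the same order as the summed level of 10 markers of infiltrating or border macrophages, and Inhba did so in 3 of the 4. No other of the 13 marker lists gave the order of Osm in more than 2 groups. This sum was 19731 CPM in control unlesioned replicate 1 and 26380 CPM in mutant 4dpl replicate 2, where Osm was highest, and 85.4% to 93.6% of it was Lyz2, which neutrophils also express. Neutrophil markers summed to 96460 CPM and 111095 CPM in the same libraries, and to 121119 CPM in mutant unlesioned replicate 2, where Osm was at 201 CPM. The part of these cells in the level of Osm or Inhba was not tested, and the comparison with the marker lists was chosen after the values had been seen.

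**Figure D4:**
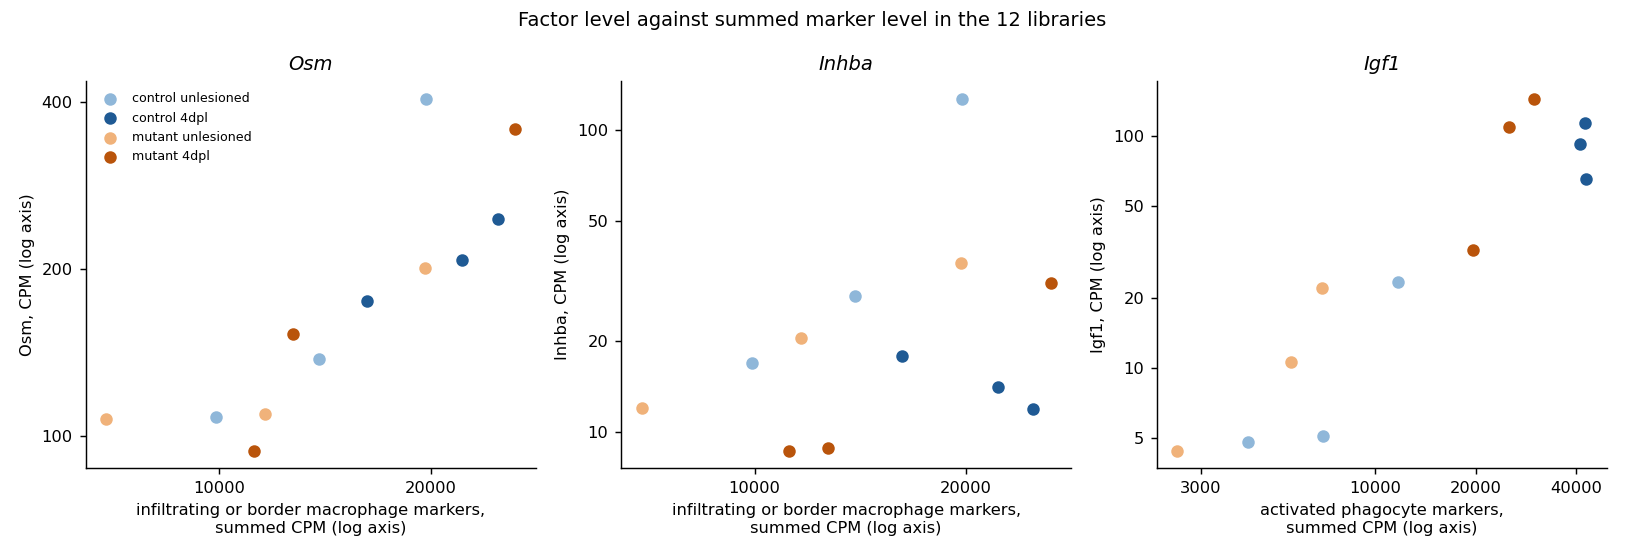
Osm and Inhba against the summed CPM of infiltrating or border macrophage markers, and Igf1 against that of activated phagocyte markers, in the 12 libraries coloured by group, with log axes. Osm ranks with its marker sum in each group, Inhba is highest in control unlesioned replicate 1 at 128 CPM, and Igf1 and its marker sum are both higher at 4dpl.

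Lif, Bmp4 and Bdnf were low, and none was called in any comparison. Lif, a survival factor for oligodendrocytes, was between 0.50 and 2.57 CPM on 22 to 137 counts, and its mutant 4dpl libraries (0.50, 0.59 and 0.70 CPM) lay below all control 4dpl libraries (1.12, 1.68 and 1.17 CPM), with a log2 difference of -1.14 ± 0.51 (SE, adjusted p = 0.687, edgeR). Bmp4, which favours astrocytic over oligodendrocytic fate in culture, was at 1.71, 0.999 and 2.03 CPM in control unlesioned libraries and at 6.504, 2.44 and 2.42 CPM in mutant unlesioned libraries, without overlap, with a log2 difference of 1.26 ± 0.49 (SE, adjusted p = 0.845, edgeR). Its change after lesion was 0.67 ± 0.49 (SE) in the control and 0.27 ± 0.48 (SE) in the mutant. Bdnf was at 1.03, 1.02 and 1.02 CPM in control unlesioned libraries, at 1.71, 2.29 and 1.79 CPM in mutant unlesioned libraries and between 0.295 and 1.38 CPM at 4dpl, on 11 to 122 counts. Its log2 difference after lesion was -0.41 ± 0.55 (SE, adjusted p = 0.6053) in the control and -1.13 ± 0.55 (SE, adjusted p = 0.1626) in the mutant (edgeR). Bmp4 and Bdnf share up to 89 and 497 bases of exon with Gm15217 and Gm45346, both on the opposite strand.

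No factor differed between the genotypes by the test, either unlesioned or at 4dpl, and no change after lesion differed between them. In each of these 3 comparisons 0.0% of all genes were called by edgeR, while 1624, 2153 and 1184 genes had an unadjusted p below 0.05 and DESeq2 called 45, 227 and 0 genes, none of them a factor. Unlesioned, the values furthest from 0 were -1.33 ± 0.67 (SE) for Inhba, 1.26 for Bmp4, -1.14 ± 0.59 (SE) for Gdf15 and 1.12 for Fgf2. At 4dpl they were -1.27 ± 0.58 (SE) for Gdf15 (unadjusted p = 0.0463, adjusted p = 0.7072, edgeR) and -1.14 for Lif. Both comparisons share their libraries with the changes after lesion given above.

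Receptors, binding proteins and target genes of the factors, 92 genes in 8 groups, were examined next, of which 88 were tested. In the control 8 rose and 5 fell, in the mutant none was called, and over both genotypes 20 rose and 8 fell. Of all genes, 5.12% rose and 5.01% fell in the control and 14.2% and 18.6% over both genotypes. All those that rose were among the 72 pathway genes with a mean of at least 1 CPM, and of all 15765 genes at that level 1582 rose in the control and 27.8% over both genotypes, so that 8 and 20 of 72 are close to the background shares. In the TGF-beta group 12 of the 13 genes had a log2 difference above 0 over both genotypes, 7 rose and none fell, with a median of 0.64. All 13 had a mean of at least 1 CPM, where 27.8% of all genes rose and the median over all of them was 0.34, and genes between 5 and 8 on the log2 CPM scale had medians of 0.48 to 0.55. Tgfbr1, a signalling receptor, was at 135, 85.6 and 167 CPM in control unlesioned and 371, 383 and 489 CPM in control 4dpl libraries, a log2 difference of 1.68 ± 0.39 (SE, adjusted p = 0.031, edgeR). The value for Tgfbr1 in the mutant was 0.75 ± 0.38 (SE, adjusted p = 0.1811, edgeR). Its partner Tgfbr2 changed by 1.78 ± 0.41 (SE) in the control (adjusted p = 0.031, edgeR) and by 0.93 ± 0.41 (SE) in the mutant (adjusted p = 0.13, edgeR). The ligand Tgfb3, the latency proteins Ltbp3 and Nrros and the SMAD regulator Skil were also among the 7. The microglia marker list rose beside them, with 8 of 10 genes called up over both genotypes and a median of 1.13, and its part in this was not tested.

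Pdgfra, the receptor of Pdgfa and a marker of progenitors, had the smallest unadjusted p for a difference in change between genotypes among the 11 receptors named. It was at 11.3, 9.67 and 8.38 CPM in control unlesioned and at 21.7, 26.0 and 47.9 CPM in control 4dpl libraries, a log2 difference of 1.70 ± 0.34 (SE, adjusted p = 0.0256, edgeR). In the mutant it was at 31.1, 14.5 and 15.9 CPM unlesioned and at 21.5, 20.6 and 25.1 CPM at 4dpl, a log2 difference of 0.13 ± 0.33 (SE, adjusted p = 0.797, edgeR). Unlesioned mutant libraries were all above the control ones, by 1.07 ± 0.33 (SE, adjusted p = 0.7066, edgeR). The difference between the changes was -1.57 ± 0.47 (SE, unadjusted p = 0.0045, adjusted p = 0.9999, edgeR) and did not pass the test. The list of 8 progenitor markers, Pdgfra among them, moved with it, with 4 called up in the control at a median log2 difference of 1.32, none called in the mutant at 0.15, and all 8 above 0 between unlesioned genotypes at 0.78. The difference between the changes was above 0 for 1 of the 8, with a median of -0.98, and the part of progenitor content in the values of Pdgfra was not tested. The call in the control was lost without control unlesioned replicates 2 (adjusted p = 0.0895, edgeR) or 3 (0.0733) or control 4dpl replicates 1 (0.0742) or 2 (0.0798). Pdgfc, another ligand of this receptor, rose by 1.44 ± 0.28 (SE) over both genotypes (adjusted p = 0.0043, edgeR).

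In the FGF group of 12, Fgf1, Fgf13 and the targets of FGF signalling Etv5, Dusp6 and Spry1 rose over both genotypes. The median of the group was 0.57, and Fgfr1 was not called (0.33 ± 0.19, SE). Fgf9 fell, a call that held under 7 of 20 alternatives. The mean of Fgf9 was below 1 CPM, where 34.0% of all genes fell. Etv5 and Dusp6 rose in the control, by 1.57 ± 0.39 and 0.99 ± 0.26 (SE). In the IGF group of 11 tested, Igf1r, the receptor of Igf1, fell in the control from 52.0, 58.2 and 37.4 CPM to 25.4, 23.8 and 22.2 CPM, a log2 difference of -1.05 ± 0.29 (SE, adjusted p = 0.0426, edgeR). In the mutant Igf1r was at 25.7, 48.7 and 36.3 CPM unlesioned and 24.2, 48.4 and 32.5 CPM at 4dpl, a log2 difference of -0.07 ± 0.29 (SE), and the difference between the changes was 0.97 ± 0.41 (SE, unadjusted p = 0.0312, adjusted p = 0.9999, edgeR). The fall of Igf1r in the control was lost without control unlesioned replicates 2 (adjusted p = 0.133, edgeR) or 3 (0.0774), any control 4dpl replicate (0.0858 to 0.115) or mutant unlesioned replicate 3 (0.0625), and with no filter on low counts (0.0515). Igf2r, which clears IGF2, was the 1 gene of this group that rose over both genotypes, by 0.76 ± 0.24 (SE). The call of Igf2r held under 9 of 20 alternatives.

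In the interleukin-6 group of 12 tested, the ligand Clcf1, the shared subunit Il6st and the feedback inhibitor Socs3 rose over both genotypes, by 0.62 to 0.95, while Osmr, the receptor of Osm, fell by 1.61 on the log2 scale (SE 0.29, adjusted p = 0.0035, edgeR). Osmr was at 2.31, 3.27 and 5.08 CPM in control unlesioned and 1.12, 0.850 and 0.760 CPM in control 4dpl libraries. Lifr was not called (0.53 ± 0.23, SE).

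In the activin and GDF15 group of 12 tested, Bambi, a decoy receptor, rose by 1.05 ± 0.18 (SE), and the activin antagonist Fst, the receptor Acvr1c and Gfral, the receptor of Gdf15, fell by 1.44, 2.21 and 2.92 on the log2 scale over both genotypes. These 3 were at 3.33 CPM or less in every library, and Gfral at 1.74 CPM or less. Of the BMP group of 15, the target Id2 rose by 0.78 ± 0.17 (SE), and Bmp6 and the antagonist Grem1 fell, both at 1.65 CPM or less in every library. Among genes with a mean below 1 CPM, 34.0% were called down over both genotypes. Acvr2a (0.64 ± 0.23, SE) and Bmpr1a (0.16 ± 0.16, SE) were not called. In the neurotrophin group of 8 tested, Ntrk3 fell by 1.17 on the log2 scale (SE 0.30), from between 5.18 and 16.5 CPM unlesioned to between 2.95 and 5.90 CPM at 4dpl, and Ntrk2, the receptor of Bdnf, was not called (0.30 ± 0.29, SE).

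**Figure D5:**
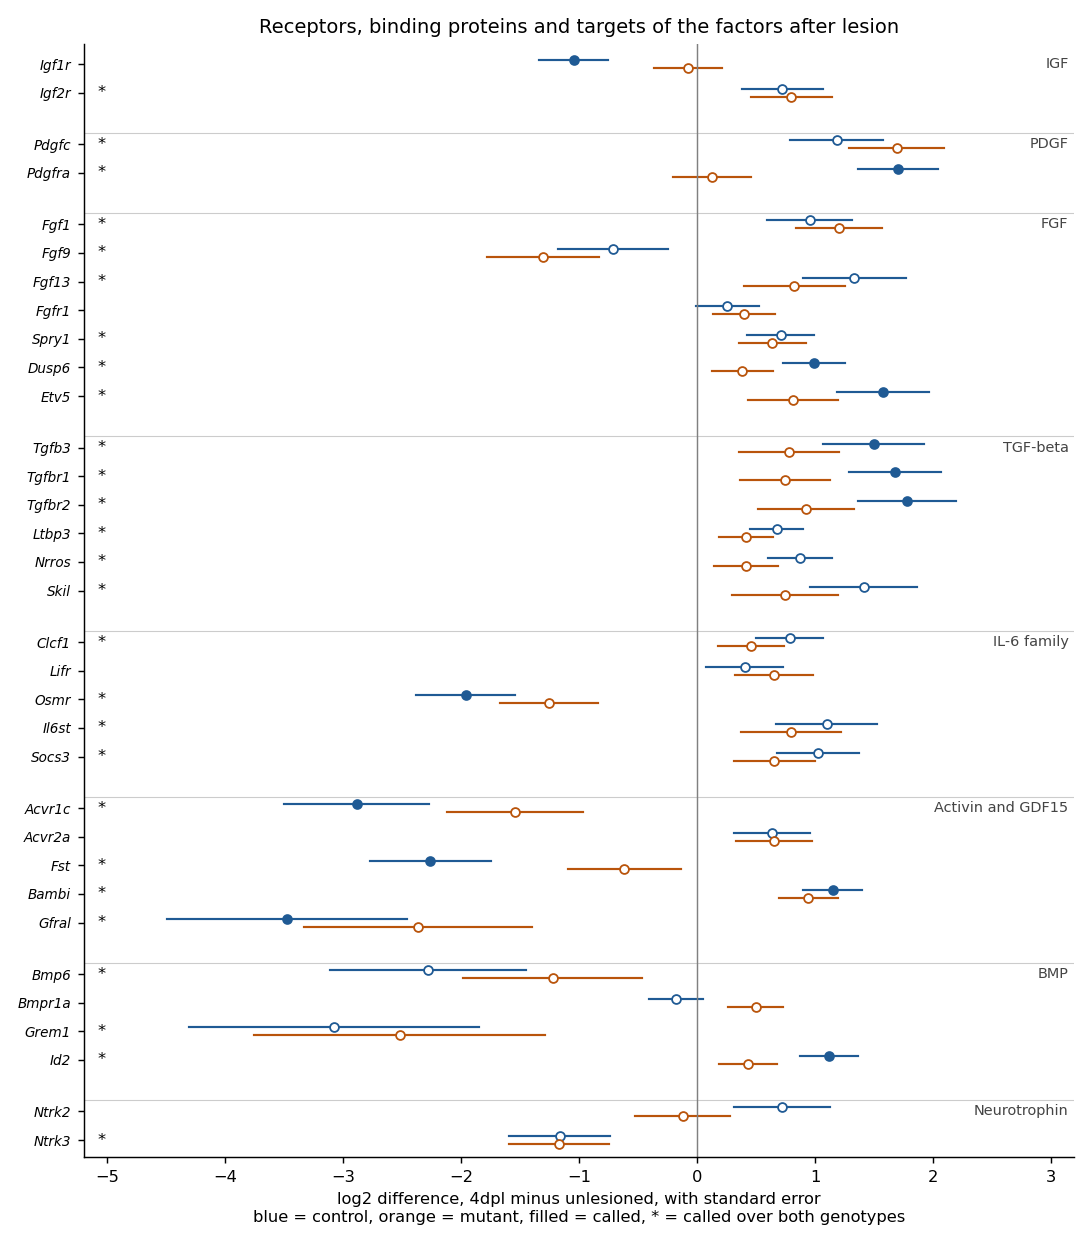
Log2 difference with standard error between 4dpl and unlesioned libraries in the control (blue) and the mutant (orange) for the receptors of the factors and for genes of the 8 groups called in the control or over both genotypes. Filled points passed the test in that genotype, and stars mark genes called over both genotypes, as all 6 shown of the TGF-beta group were.

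These calls moved with the choice of libraries. In the control, no gene of the 8 groups was called without control unlesioned replicates 2 or 3 or control 4dpl replicates 1 or 2. Of all genes, 1, 114, 4 and 2 were called in these fits, up or down. Without control unlesioned replicate 1, 18 genes of the 8 groups were called up, beside 4124 of all genes. The 5 that fell became 3 without control 4dpl replicate 3 or mutant unlesioned replicate 3. In the mutant, 4 were called up without control unlesioned replicate 1 and 13 without mutant unlesioned replicate 1, beside 2615 and 2135 of all genes. Over both genotypes, the number that rose stayed between 14 and 26, and the 8 that fell became 5 without control 4dpl replicates 1 or 2 or mutant 4dpl replicate 1.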

How the data were processed

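RNA was sequenced from 12 libraries of Percoll-enriched spinal cord, 3 in each of 4 groups. The authors aligned paired-end reads to mm10 with BWA, used featureCounts to assign uniquely mapped reads to exons of the GRCm38 Ensembl annotation, and deposited the raw count of each gene in each library without normalization. The submitters' processing notes also list STAR and DESeq2 1.2.5, with no role given. Whether counting used strand is not given in the sources used here.

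The edgeR package (4.0.16, under R 4.3.3) was used throughout. Its filterByExpr function retained 31109 of 54838 genes, which were scaled by TMM and fitted with glmQLFit in one model of the 4 group means over all 12 libraries. Contrasts were tested with glmQLFTest: 4dpl against unlesioned in each genotype and averaged over both, mutant against control in unlesioned and in 4dpl tissue, and the interaction. A call required p below 0.01 and a Benjamini-Hochberg adjusted p below 0.05. Standard errors were taken from the log2 difference and the F statistic. Symbols were matched by Ensembl identifier for 54723 genes. Each factor rests on 11 or more counts in every library.

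The 10 factors, the pathway groups and the marker lists were chosen with earlier results of these data known. The text names all 10 factors, the receptors listed with them and the pathway genes called after lesion, and gives the 3 most similar genes by Pearson's r for factors called in a comparison. For Fgf2 these were Gm44751 (0.811), Plscr4 (0.809) and Adam3 (0.789).

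Promoter sequences are from RefSeq (GRCm38.p6). Counts were simulated on 29158 genes for the control comparison, with 200 genes changed by 3 on the log2 scale. Of these, 191 were recovered, with 9 false calls. Smaller changes were not simulated, so their recovery was not tested. Alternatives were no filter or a stricter one on low counts, RLE size factors, DESeq2 1.42.0, limma 3.58.1 with voom and sample weights, edgeR with legacy set to false, the groups compared only, replicate blocks, and leaving out each library. Protein sequences and sorted-cell data were not analysed here, and some of the pathway genes called are not reported here.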

Additional observations from a re-analysis of the deposited data

How the results depend on the processing

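Igf1 and Gdf15 were called over both genotypes under all 20 alternatives. The levels of Lif and Bdnf rest on few counts. The cause of the changes below was not tested, apart from fewer libraries or genes where these were left out. RLE size factors lowered log2 differences after lesion in the mutant by 0.14 at the median of all genes and moved those of the other comparisons by less than 0.1 in either direction.

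Of the 10 factors, the number called after lesion was 1 (Igf1) in the control with at least 10 counts in every library and with the groups compared only, and in the mutant 2 (Igf1 and Gdf15) with no filter, DESeq2 and edgeR with legacy set to false, and 3 (with Tgfb1) with voom. Leaving out 1 library gave 0 to 3 in the control, 0 to 3 in the mutant and 2 to 4 over both genotypes. Of the pathway genes, those called up in the control numbered 14 with no filter, 15 with DESeq2, 24 with voom and 14 with legacy set to false (0 to 18 with 1 library left out). Those called down in the control numbered 2 with at least 10 counts, 11 with DESeq2, 10 with voom, 8 with legacy set to false and 3 with the groups compared only (0 to 7 with 1 library left out). In the mutant, 1 was called up with no filter, 3 with DESeq2, 9 with voom and 3 with legacy set to false (0 to 13 with 1 library left out), and 5 were called down with DESeq2, 3 with voom and 1 with legacy set to false. Over both genotypes, 7 were called up with at least 10 counts, and 14 to 26 were called up and 5 to 10 down with 1 library left out.

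Replicate numbers in the labels were shared by all groups. The paper's own list of samples numbers the control 4dpl and mutant unlesioned libraries differently. The correlations and blocks given here follow the labels, and pairing by the paper's numbers was not tested. Deviations of same-numbered unlesioned and lesioned libraries correlated by 0.189, 0.052 and 0.189 in the control and by -0.03, 0.073 and -0.07 in the mutant, so the numbers were not taken to pair the libraries, although each control library correlated best with its own number. With the replicate block by number, 3 factors were called in the control (Igf1, Tgfb1 and Gdf15), and with the block within genotype 2 (Igf1 and Gdf15) and 13 pathway genes called up. Fgf2 in the control was not called with either block (adjusted p = 0.0535 and 0.0526). The block by number turned the sign of Osm in the control (0.050), Inhba between genotypes at 4dpl (-0.064) and the interaction of Igf1 (0.13), and the block within genotype that of Osm in the control (0.20).

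No result that reversed had been called. Other reversals were Lif (0.18 with voom) and Osm (0.056 with no filter, 0.56 with voom) in the control, Bmp4 in the mutant (-0.014 with at least 10 counts), Tgfb1 between unlesioned genotypes (0.31 with voom) and Osm over both genotypes (-0.029 with at least 10 counts). Leaving out 1 library gave ranges across 0 after lesion in the control for Pdgfa (-0.38 to 0.096), Lif (-0.59 to 0.20) and Osm (-0.37 to 0.80). In the mutant it did so for Fgf2 (-0.91 to 0.058), Osm (-0.15 to 0.91), Inhba (-1.36 to 0.012) and Bmp4 (-0.10 to 0.94), and over both genotypes for Osm (-0.089 to 0.68). Between unlesioned genotypes it did so for Igf1 (-0.58 to 1.32), Tgfb1 (-0.40 to 0.36), Osm (-1.004 to 0.18) and Inhba (-1.83 to 0.022). At 4dpl it did so for Igf1 (-0.35 to 0.49), Pdgfa (-0.18 to 0.50), Osm (-0.77 to 0.28), Inhba (-0.74 to 0.45) and Bdnf (-0.18 to 0.84). In the interaction it did so for Igf1 (-1.25 to 0.66), Tgfb1 (-0.68 to 0.081), Lif (-0.91 to 0.20), Osm (-0.24 to 0.94), Gdf15 (-1.07 to 0.45) and Bmp4 (-0.79 to 0.25).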
